A study of Mus musculus with 16 samples.

Results

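The genes described here are the transcription factors of the MYC network, namely *Myc*, *Mycn*, *Max*, *Mxd1*, *Mxd3*, *Mxd4*, *Mxi1*, *Mnt*, *Mga* and *Tfap4*. They were picked by gene symbol from the deposited table, and all 10 symbols were found among its 51912 genes. The table covers 16 bulk RNAseq libraries of cMyc+ germinal center (GC) B cells from the spleens of cMyc gfp/gfp animals, males and females of 6 to 15 weeks that were immunized with sheep red blood cells (SRBCs) and analysed at day 7. In these mice the endogenous *Myc* locus encodes a GFP-cMyc fusion protein, and every subpopulation was sorted as B220+ CD38low CD95+ GFP+, so all 4 groups were selected on MYC protein and carry the same modified locus. The groups were cMyc+prePB (CD69hi, plasmablast precursors), cMyc+early (CD23hi CD21/35hi), cMyc+lateCD23int (intermediate for CD23 and CD21/35) and cMyc+lateCD23lo (low for both), with 4 libraries each, numbered 1 to 4. The labels do not state whether each library came from separate animals, so that the p-values measure the spread between these libraries, and fewer cells of a type cannot be told apart from less RNA per cell in bulk samples.

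MYC is a basic helix-loop-helix leucine zipper protein that activates transcription as a heterodimer with MAX at E-box sequences. The MXD proteins (encoded by *Mxd1*, *Mxd3*, *Mxd4* and *Mxi1*), MNT and MGA bind the same partner, and MXD and MNT recruit the SIN3 corepressors with their histone deacetylases to such sites. In the GC, MYC marks light zone B cells that have been positively selected with T cell help, and AP4, the product of the MYC target gene *Tfap4*, is known to sustain the proliferation of these cells after MYC itself has fallen.

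The members lie on separate chromosomes except for *Mycn* and *Max*, which are both on chromosome 12 of the GRCm38 build. In the GENCODE annotation *Myc* (ENSMUSG00000022346) spans chr15:61985391-61990374 on the plus strand, *Max* (ENSMUSG00000059436) spans chr12:76937269-76962201 on the minus strand and *Mxd3* (ENSMUSG00000021485) spans chr13:55325168-55329823 on the minus strand. For the remaining members the spans are chr12:12936093-12941914 (*Mycn*), chr6:86647042-86669161 (*Mxd1*), chr5:34173883-34187720 (*Mxd4*), chr19:53310518-53375810 (*Mxi1*), chr11:74830920-74845725 (*Mnt*), chr2:119897228-119969581 (*Mga*) and chr16:4544661-4559854 (*Tfap4*). Exons of *Mxd3* share 105 bases with *Prelid1*, those of *Mxd4* share 514 bases with the antisense gene *Gm42846* and those of *Mxi1* share 194 bases with *Gm10197*, all on the opposite strand, and the sources used here do not state that strand was used in the counting. Reads from such shared bases cannot be assigned to one gene with certainty.

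Promoter windows of 250 bases before to 50 bases after the start of transcription were found in the RefSeq set of GRCm38.p6 for 8 of the 10 members, and none was found for *Myc* or *Tfap4*. The windows were searched on both strands for CACGTG, the E-box bound by MYC-MAX and by the repressor dimers, and for CAGCTG, an E-box bound by AP4. CACGTG was present in the window of 3 of the 8 members, while 7.15% of all 32851 windows and 8.09% of the genes held it. CAGCTG was found for *Mga*, and in 16.3% of all windows. The stretches around these matches are shown because they place the network's own binding sequence next to 3 of its genes, with the match in capitals and the strand of the gene read from 5′ to 3′.
Max, chr12:76962219-76962311, minus strand: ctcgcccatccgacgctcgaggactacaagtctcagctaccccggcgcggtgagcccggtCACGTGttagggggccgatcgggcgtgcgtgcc
Mxd4, chr5:34187864-34187960, minus strand: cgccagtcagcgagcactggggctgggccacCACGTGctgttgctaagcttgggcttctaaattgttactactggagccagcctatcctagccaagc
Mnt, chr11:74830741-74830866, plus strand: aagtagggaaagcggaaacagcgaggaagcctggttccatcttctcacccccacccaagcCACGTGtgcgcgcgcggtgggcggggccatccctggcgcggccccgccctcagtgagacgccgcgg
Mga, chr2:119897191-119897257, plus strand: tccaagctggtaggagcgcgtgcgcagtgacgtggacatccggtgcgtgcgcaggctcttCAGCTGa
Distances are from the RefSeq starts, which can differ from the ends of the GENCODE spans given above. The CACGTG of *Max* began 3 bases before the RefSeq start, that of *Mxd4* 219 bases before it and that of *Mnt* 123 bases before it, whereas the CAGCTG of *Mga* began 23 bases after the start. A match of letters is not evidence of binding.

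Read depth was similar over the libraries, with 19812080 to 25795815 reads recovered from the normalized counts, and 3 reads, the number taken as the limit of measurement, corresponded to 2.48 to 3.23 normalized counts. The 5 markers of B cells summed to 80224 to 135936 normalized counts per library in cMyc+prePB and 103825 to 173830 in cMyc+early. The sums were 133364 to 230171 in cMyc+lateCD23int and 115758 to 183523 in cMyc+lateCD23lo. For cMyc+prePB against the others together their median log2 fold change was −0.35, with 1 of 5 higher. Of the 5, 4 had an unadjusted p under 0.05 (11.1% of all genes), and limma without a block for the replicate number called 0. The 7 T cell markers summed to 1.07 to 234, the 7 myeloid markers to 1.65 to 1174 and the 5 erythroid markers to 119.9 to 3011. Both the lowest and the highest T cell sum were in cMyc+prePB. The highest T cell sums of the other groups were 85.8 (cMyc+early), 92.9 (cMyc+lateCD23int) and 92.7 (cMyc+lateCD23lo). *Cd4* and *Cd8b1* were at 0 in all cMyc+prePB libraries, *Cd3e* and *Cd8b1* in all cMyc+early libraries and *Cd3e* in all cMyc+lateCD23lo libraries. What part T cells, myeloid cells and erythroid cells had in the results below was not tested. Of the sort markers, *Fcer2a* (CD23) had a log2 fold change of 2.63 for cMyc+early against cMyc+lateCD23lo (limma adjusted p = 0.00434), the direction of the CD23 gate. *Cr2* (CD21/35) did not pass in that comparison (0.63, adjusted p = 0.534), but was lower in cMyc+prePB, which was not gated on it, with −1.71 against the other subpopulations together (adjusted p = 0.00668). *Cd69*, the marker of the cMyc+prePB gate, had mean levels of 3453 (cMyc+prePB), 3159.8 (cMyc+early), 3762 (cMyc+lateCD23int) and 2277 (cMyc+lateCD23lo) normalized counts, and its transcript did not separate cMyc+prePB from the others (log2 fold change 0.23, limma adjusted p = 0.799).

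Levels of the members were compared with each other per kilobase of exon. *Myc* had the highest mean with 905 ± 472 normalized counts per kb (SD, n = 16), followed by *Mxd3* with 377 ± 117 and *Max* with 252 ± 189. *Mga* (54.2 ± 18.1) and *Tfap4* (46.6 ± 37.6) were at an intermediate level. *Mxd4* (15.2 ± 6.27), *Mnt* (8.02 ± 4.04), *Mxd1* (7.88 ± 7.4) and *Mxi1* (4.64 ± 5.87) were low. *Mxd3* was thus the most abundant of the 4 MXD genes. *Mycn*, the paralog of *Myc* known from progenitor cells and neural tumors, was at 0 in all 16 libraries, which allows up to 3 reads per library. The order of neighbors was not fixed in single libraries: *Myc* was above *Mxd3* per kb in 12 of 16 libraries and below it in 4, and the ranges of *Mga* and *Tfap4*, and those of the 4 low members, overlapped.

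**Figure D1:**
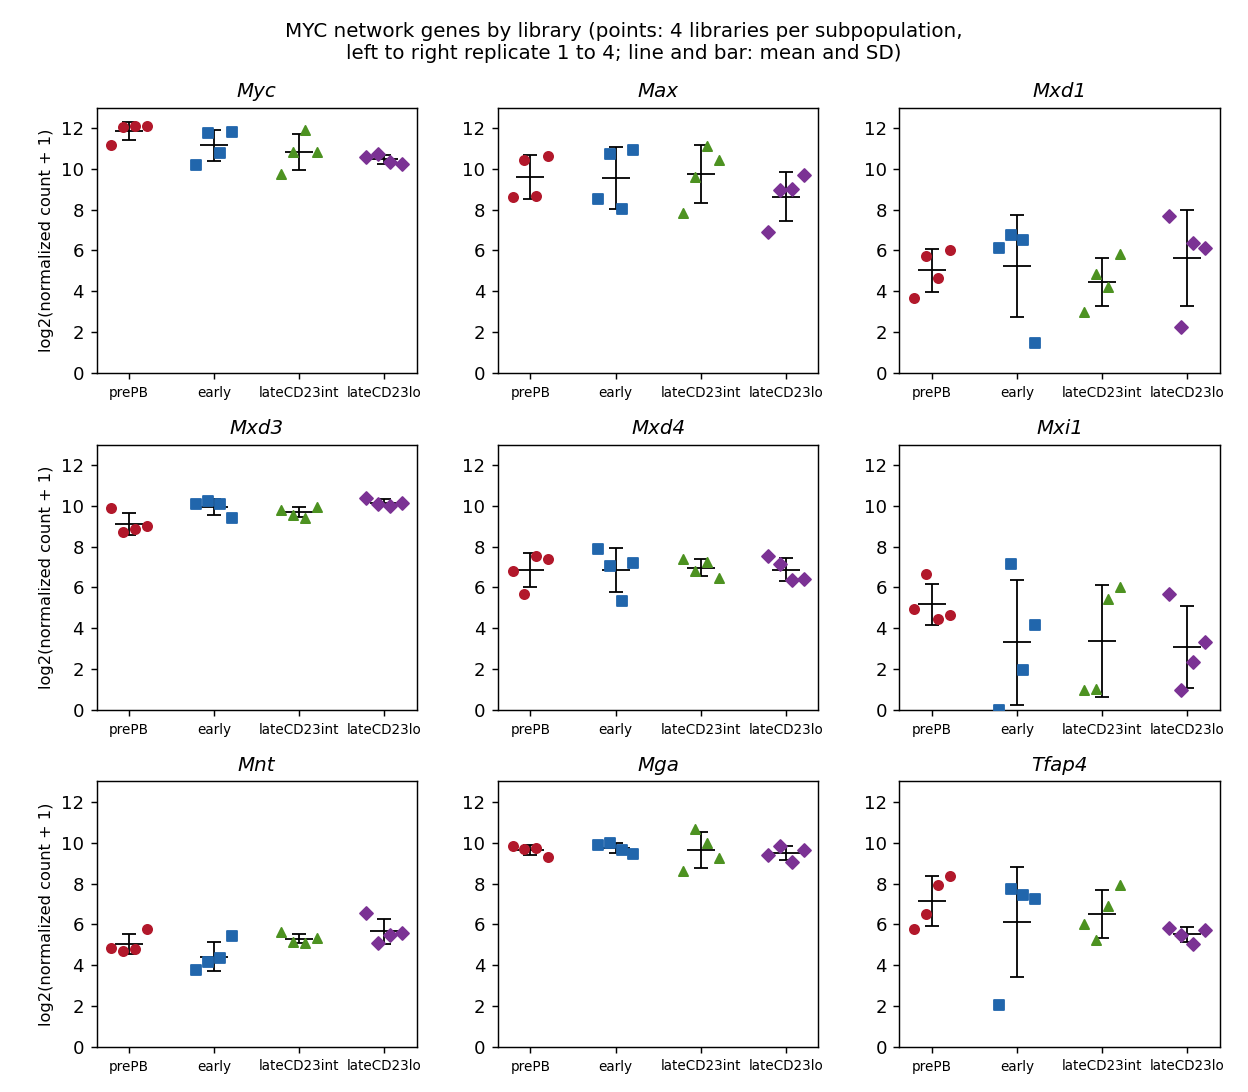
Level of the 9 tested members in each library, as log2(normalized count + 1), for the 4 subpopulations (colors). Points stand for libraries 1 to 4 from left to right, and the line and bar for their mean and SD. *Myc* has its highest mean in cMyc+prePB and its lowest in cMyc+lateCD23lo, *Mxd3* the reverse, while *Max* and *Tfap4* spread widely within subpopulations.

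Whether the network differed between the stages of positive selection was asked in 8 comparisons, each fitted in limma over 12505 genes, those averaging 10 normalized counts or more. This filter kept 9 of the 10 members and removed *Mycn*. None of the 9 passed an adjusted p of 0.05 in any of the comparisons by limma without a block for the replicate number. Among all genes tested, the test called 0.312% for cMyc+prePB against the other subpopulations together, 0.192% for cMyc+prePB against cMyc+early, 0.144% against cMyc+lateCD23int and 0.264% against cMyc+lateCD23lo. It called 0.008% for cMyc+early against cMyc+lateCD23int, 0.008% for cMyc+lateCD23int against cMyc+lateCD23lo, 0.28% for cMyc+early against cMyc+lateCD23lo and 0.408% in the F test over the 4 subpopulations. At an unadjusted p under 0.05, *Myc* and *Mxd3* passed in the F test (10.2% of all genes), for cMyc+prePB against the others together (11.1%), against cMyc+lateCD23int (8.77%) and against cMyc+lateCD23lo (12.7%), and *Mxd3* passed against cMyc+early (8.58%). No member did so among cMyc+early, cMyc+lateCD23int and cMyc+lateCD23lo, where 3.71% (cMyc+early against cMyc+lateCD23int), 6.28% (cMyc+lateCD23int against cMyc+lateCD23lo) and 10.3% (cMyc+early against cMyc+lateCD23lo) of all genes did. The quasi-likelihood test of edgeR on the recovered reads called 0 members in all 8 comparisons, and DESeq2 called *Mxd3* for cMyc+prePB against the others together and *Myc* and *Mxd3* for cMyc+prePB against cMyc+lateCD23lo. Over the 54 pairs of a member and 2 subpopulations, 0 were called by limma, 5 had an unadjusted p under 0.05 and the lowest adjusted p was 0.108, so no neighbors in the order of the subpopulations passed limma's test for any member. The libraries of the 2 groups did not overlap for *Myc* and *Mxd3* in cMyc+prePB against cMyc+lateCD23lo and for *Mxd3* in cMyc+lateCD23int against cMyc+lateCD23lo. No member was higher in all libraries of cMyc+lateCD23int than in those of cMyc+lateCD23lo, as 1.91% of all genes tested were. Nor was any member free of overlap for cMyc+prePB against the others together (0.328% of all genes higher and 0.264% lower), against cMyc+early (2.06% and 2.18%) or against cMyc+lateCD23int (2.46% and 2.75%), for cMyc+early against cMyc+lateCD23int (1.11% and 1.37%) or for cMyc+early against cMyc+lateCD23lo (2.86% and 3.37%).

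**Figure D2:**
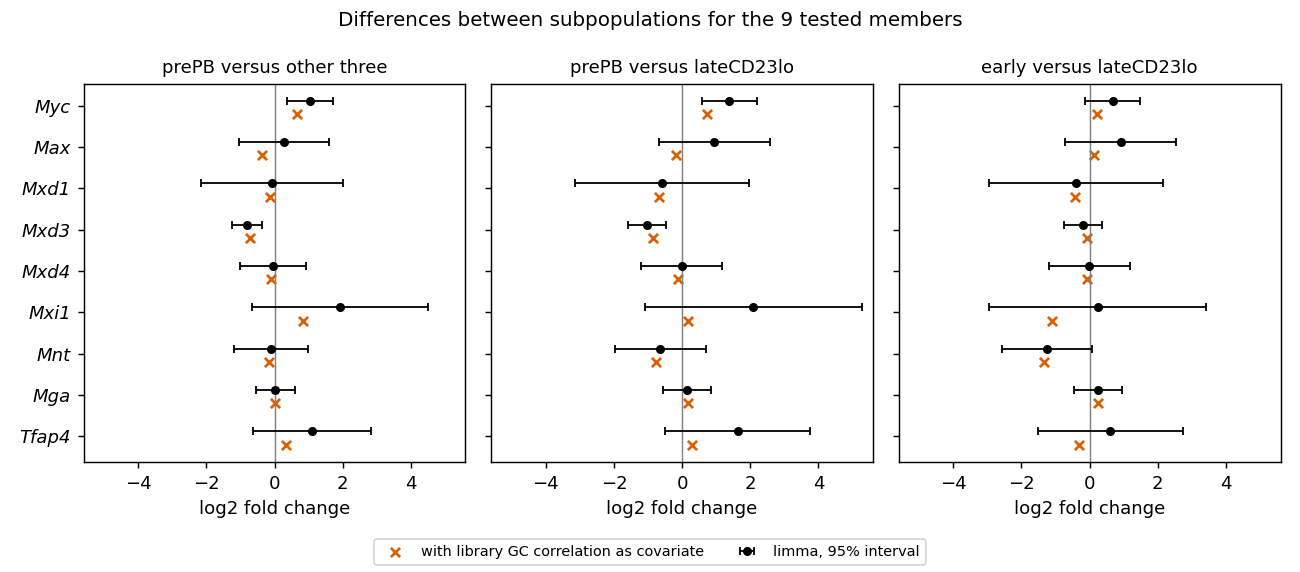
Log2 fold change (x axis) of each tested member (y axis) in 3 comparisons, the first-named subpopulation minus the second, with the 95% interval of limma (black points and bars). Crosses show the fold change with the GC correlation of each library in the model. For cMyc+prePB, the intervals of *Myc* lie above 0 and those of *Mxd3* below 0, and all other intervals shown span 0.

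*Myc* had its highest mean in cMyc+prePB and its lowest in cMyc+lateCD23lo. The 4 libraries had 2300.0, 4165, 4411 and 4417 normalized counts in cMyc+prePB, and 1183, 3503, 1760.3 and 3563 in cMyc+early. Those of cMyc+lateCD23int had 857, 1801, 3817 and 1839, and those of cMyc+lateCD23lo 1528, 1698, 1282 and 1198. All cMyc+prePB libraries were above all cMyc+lateCD23lo libraries, while library 1 of cMyc+prePB fell within the ranges of cMyc+early and cMyc+lateCD23int. Of all tested genes, 3.01% were higher without overlap in cMyc+prePB than in cMyc+lateCD23lo. The log2 fold change was 1.39 for cMyc+prePB against cMyc+lateCD23lo (95% interval 0.57 to 2.20, limma adjusted p = 0.151) and 1.04 ± 0.32 (SE) against the others together (0.37 to 1.71, adjusted p = 0.199). It was 0.71 against cMyc+early (−0.11 to 1.53, adjusted p = 0.652), and 0.68 for cMyc+early against cMyc+lateCD23lo (−0.14 to 1.49, adjusted p = 0.558). In the exact permutation test over 4 against 4 libraries (two-sided), the difference between cMyc+prePB and cMyc+lateCD23lo had p = 0.0286, the smallest that this design allows, and 3 of 54 such tests of the members reached it.

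The *Myc* values followed a property of the libraries. For each library, the log2 values of 8658 genes were centered on the gene's mean over all libraries and correlated with the GC content of the gene's longest transcript. This GC correlation ranged from −0.273 to 0.320, and was positive in 3 of 4 cMyc+prePB libraries, 2 of 4 cMyc+early, 2 of 4 cMyc+lateCD23int and 0 of 4 cMyc+lateCD23lo libraries. *Myc* (transcript GC content 53.3%) correlated with it at r = 0.84 over the 16 libraries, above 98.3% of tested genes. Of the members at low levels, *Mnt* (GC content 59.5%) had r = −0.07 and *Mxi1* (46.3%) had 0.69. Any part of a transcript's own GC content in these correlations was not tested. The 7 libraries with a positive value had 1839 to 4417 normalized counts of *Myc* and the other 9 had 857 to 2300.0. Library 1 of cMyc+prePB, the lowest of its group for *Myc*, had a GC correlation of −0.189. With the GC correlation as a covariate, the log2 fold change of *Myc* was 0.66 for cMyc+prePB against the others together (adjusted p = 0.165) and 0.72 against cMyc+lateCD23lo (adjusted p = 0.355). The adjusted p of the second comparison ranged from 0.0116 to 0.355 over 30 alternative settings. Since the GC correlation was positive in 3 of 4 cMyc+prePB and 0 of 4 cMyc+lateCD23lo libraries, subpopulation and base composition cannot be told apart.

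**Figure D3:**
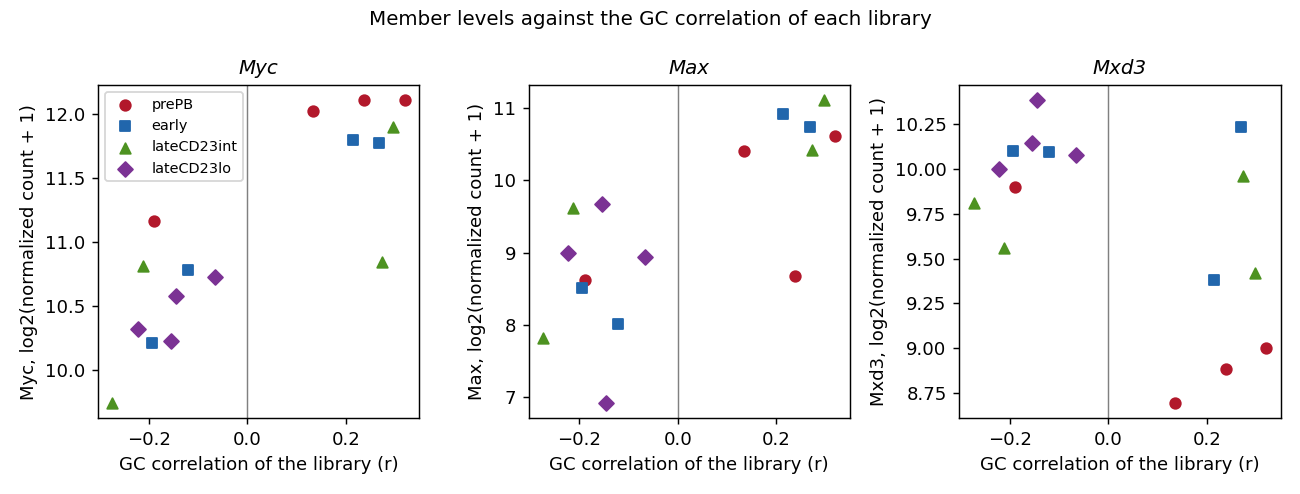
Log2(normalized count + 1) of *Myc*, *Max* and *Mxd3* (y axes) against the GC correlation of each library (x axis), with 1 point per library, colored by subpopulation. *Myc* and *Max* are higher in most libraries to the right of 0 (r = 0.84 and 0.74), and *Mxd3* is lower there (r = −0.53).

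*Max*, the shared partner of the network, varied strongly between libraries of the same subpopulation. It had 394, 1360.4, 409 and 1566 normalized counts in cMyc+prePB, and 363, 1703, 257 and 1942 in cMyc+early. In cMyc+lateCD23int it had 225, 784, 2216 and 1376, and in cMyc+lateCD23lo 119.6, 489, 509.7 and 819. All groups overlapped, and library 1 was the lowest or next to the lowest in each group. The range over libraries was 18.5-fold, and the SD within subpopulations of 1.31 on the log2 scale was larger than that of 99.7% of the 3117 genes within 2-fold of its mean level. The log2 fold change with the largest size was 1.11 for cMyc+lateCD23int against cMyc+lateCD23lo (95% interval −0.51 to 2.73, limma adjusted p = 0.858). *Max* correlated with the GC correlation of the library at r = 0.74, with 409 to 2216 normalized counts in the 7 libraries with a positive value and 119.6 to 819 in the other 9.

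*Mxd3*, which encodes the MXD family member known from S phase of proliferating cells, had its lowest mean in cMyc+prePB and its highest in cMyc+lateCD23lo. It had 952, 413, 472 and 511 normalized counts in cMyc+prePB, and 1095, 1201, 1093 and 664 in cMyc+early. It had 898, 754, 684 and 996 in cMyc+lateCD23int, and 1334, 1081, 1020.5 and 1132 in cMyc+lateCD23lo. In cMyc+prePB, 3 libraries were below the 12 libraries of the other groups, and library 1 was within their range. All libraries of cMyc+lateCD23lo were above those of cMyc+prePB, and above those of cMyc+lateCD23int; of all tested genes, 3.55% and 1.86% were lower without overlap in the first or the second of these against cMyc+lateCD23lo. The log2 fold change was −1.03 for cMyc+prePB against cMyc+lateCD23lo (95% interval −1.58 to −0.48, limma adjusted p = 0.108), −0.81 ± 0.21 (SE) against the others together (adjusted p = 0.123) and −0.83 against cMyc+early (adjusted p = 0.328). Both non-overlapping pairs had p = 0.0286 in the exact permutation test (two-sided).

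Without library 1 of cMyc+prePB, limma called *Mxd3* lower in cMyc+prePB than in the others together (log2 fold change −1.07, adjusted p = 0.0211) and than in cMyc+lateCD23lo (−1.29, adjusted p = 0.0164). DESeq2 called both with all libraries kept (adjusted p = 0.0498 and 0.0311). Of all 12505 genes, limma called 79 and 153 without that library, in place of 39 and 33. DESeq2 called 225 and 270 of all genes with every library kept. The adjusted p of *Mxd3* over the alternative settings ranged from 0.0211 to 0.355 and from 0.0164 to 0.286. It was called in 2 of 29 settings against the others together and in 3 of 30 against cMyc+lateCD23lo. With the GC correlation as a covariate, the log2 fold changes were −0.71 (adjusted p = 0.181) and −0.85 (adjusted p = 0.286). The correlation of *Mxd3* with the GC correlation of the library was −0.53, and its transcript has a higher GC content (56.5%) than 88.6% of tested genes.

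*Mxd1*, *Mxd4* and *Mxi1*, whose products are associated with growth arrest and differentiation, were detected at low levels with wide scatter. *Mxd1* had 11.8, 51.3, 24.3 and 64.9 normalized counts in cMyc+prePB, 69.2, 107, 90.5 and 1.81 in cMyc+early, 6.97, 27.5, 17.6 and 55.8 in cMyc+lateCD23int and 207, 3.74, 82.6 and 69.3 in cMyc+lateCD23lo. The groups of *Mxd1* overlapped, and library 4 of cMyc+early was under 3 reads. Its log2 fold change with the largest size was −1.15 for cMyc+lateCD23int against cMyc+lateCD23lo (95% interval −3.71 to 1.41). *Mxd4* had 112, 50.4, 186 and 165 normalized counts in cMyc+prePB, 238, 131, 39.5 and 144 in cMyc+early, 164, 109, 148 and 86.4 in cMyc+lateCD23int and 185, 141, 81.6 and 84.6 in cMyc+lateCD23lo. The group means of *Mxd4* lay between 123 and 138, and its log2 fold change was −0.01 for cMyc+prePB against cMyc+lateCD23lo (95% interval −1.21 to 1.18), which leaves room for changes of more than 2-fold.

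*Mxi1* had 30.1, 99.2, 20.7 and 24.3 normalized counts in cMyc+prePB, 0, 139.8, 2.89 and 17.2 in cMyc+early, 0.995, 1.02, 41.5 and 64.1 in cMyc+lateCD23int and 50.6, 0.936, 4.08 and 9.18 in cMyc+lateCD23lo. It was at or under 3 reads in 5 of the 16 libraries, of which 0 were cMyc+prePB libraries. The log2 fold change of *Mxi1* for cMyc+prePB against cMyc+lateCD23lo was 2.09 (95% interval −1.08 to 5.27, limma adjusted p = 0.577), and 0.17 with the GC correlation as a covariate. Its correlation with the GC correlation of the library was 0.69.

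*Mnt* and *Mga* encode the broadly expressed members of the network, MNT being a repressor that is present in resting and cycling cells alike and MGA the largest MAX partner, which joins the Polycomb complex PRC1.6. *Mnt* had 27.9, 24.8, 27.0 and 54.1 normalized counts in cMyc+prePB, 12.6, 16.8, 19.2 and 41.5 in cMyc+early, 47.8, 34.6, 33.2 and 39.0 in cMyc+lateCD23int and 91.6, 32.7, 43.8 and 46.9 in cMyc+lateCD23lo. In cMyc+early, 3 libraries had less *Mnt* than any library of the other groups, and the log2 fold change for cMyc+early against cMyc+lateCD23lo was −1.25 (95% interval −2.58 to 0.07, limma adjusted p = 0.502). Its SD within subpopulations, 0.54 on the log2 scale, was larger than that of 4.46% of the genes within 2-fold of its mean level, so *Mnt* was steady for a gene of this abundance.

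*Mga* had 919, 828, 863 and 631 normalized counts in cMyc+prePB, 944, 1026, 802 and 701 in cMyc+early, 393, 1633, 1016 and 609 in cMyc+lateCD23int and 684, 921, 528 and 807 in cMyc+lateCD23lo. The lowest and the highest of all libraries were both in cMyc+lateCD23int. Of the members whose interval spanned 0 for cMyc+prePB against the others together, *Mga* had the narrowest one, around a log2 fold change of 0.02 (95% interval −0.55 to 0.60).

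*Tfap4* had 53.7, 90.1, 243 and 326 normalized counts in cMyc+prePB, 3.14, 209, 174 and 149.9 in cMyc+early, 63.7, 36.6, 117 and 244 in cMyc+lateCD23int and 55.0, 43.0, 31.6 and 52.0 in cMyc+lateCD23lo. The cMyc+lateCD23lo libraries lay close together at a low level, whereas the other groups spread over both low and high values, with library 1 of cMyc+early close to the limit of 3 reads. The log2 fold change for cMyc+prePB against cMyc+lateCD23lo was 1.64 (95% interval −0.49 to 3.76, limma adjusted p = 0.510), and 0.29 with the GC correlation as a covariate. *Tfap4* correlated with the GC correlation of the library at r = 0.73.

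The ratio of *Myc* to 1 repressor gene, *Mxd3*, was taken per kb within each library and does not measure the network's repressors together. For cMyc+prePB against the others together, *Mxi1* had a log2 fold change of 1.92, *Mxd1* −0.08, *Mxd4* −0.04 and *Mnt* −0.09, with 0 called by limma. The ratio of *Myc* to *Mxd3* was 2.11, 8.78, 8.16 and 7.53 in cMyc+prePB and 0.942, 2.54, 1.40 and 4.68 in cMyc+early. In cMyc+lateCD23int it was 0.832, 2.08, 4.87 and 1.61, and in cMyc+lateCD23lo 0.999, 1.37, 1.10 and 0.923. That the ratios of cMyc+prePB and cMyc+lateCD23lo do not overlap follows from the values of both genes given above and adds nothing to them. In cMyc+prePB, 3 libraries were above all others. The ratio of *Myc* to *Max* per kb ranged from 3.73 to 14.3 in cMyc+prePB and from 1.94 to 16.9 in cMyc+lateCD23lo, so the range of the first lay within that of the second. *Myc* exceeded *Max* per kb in all 16 libraries.

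Over the 16 libraries, *Myc* correlated positively with *Tfap4* (Pearson r = 0.64, Spearman rho = 0.69), *Max* (0.63 and 0.61) and *Mxi1* (0.66 and 0.61), and negatively with *Mxd3* (−0.71 and −0.68). These correlations are given as a description, since the libraries share subpopulations and base composition. As deviations from the subpopulation means they were 0.60, 0.71, 0.63 and −0.53. Without the 2 libraries farthest from the median of *Myc*, they were 0.53, 0.72, 0.70 and −0.59. Given the GC correlation of the library, the partial correlation was 0.07 for *Tfap4*, 0.02 for *Max*, 0.21 for *Mxi1* and −0.59 for *Mxd3*. *Mxd1*, *Mxd4* and *Mnt* had correlations with *Myc* between −0.15 and 0.01. For *Mga* the correlation was 0.31 (rho = 0.21), 0.32 as deviations, 0.42 without the 2 farthest libraries and 0.48 given the GC correlation of the library.

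**Figure D4:**
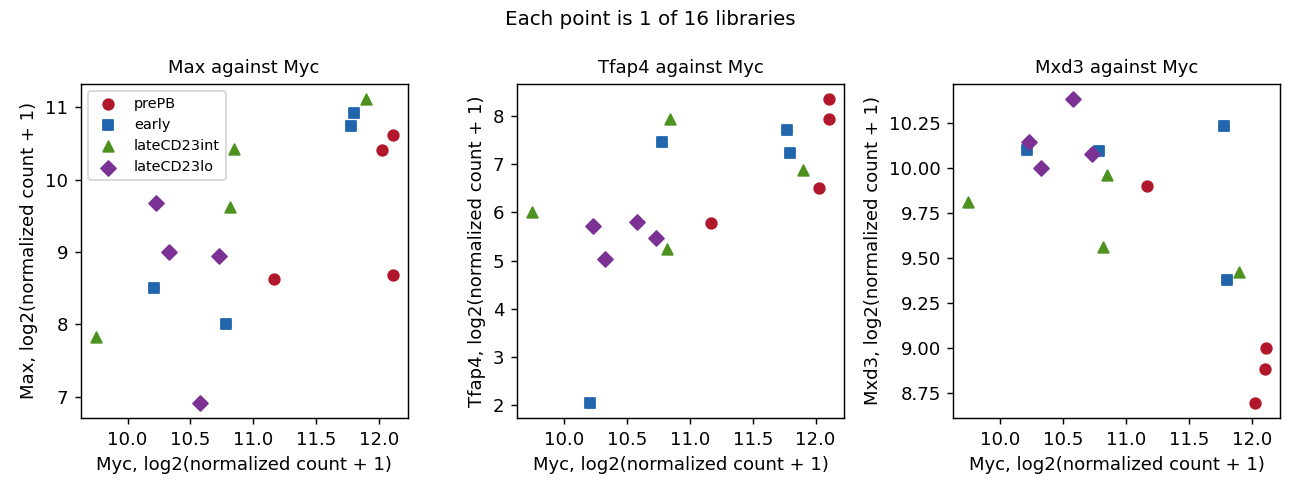
Log2(normalized count + 1) of *Max*, *Tfap4* and *Mxd3* (y axes) against that of *Myc* (x axis), with 1 point per library, colored by subpopulation. *Max* and *Tfap4* are higher where *Myc* is higher (r = 0.63 and 0.64), and *Mxd3* is lower there (r = −0.71), with 3 cMyc+prePB libraries at the lower right.

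The genes whose pattern over the 16 libraries was most like that of a member were looked up among 8669 genes with a mean of at least 100 normalized counts. Nearest to *Myc* were *Mybbp1a* (r = 0.95) and *Atad3a* (r = 0.91), nearest to *Max* were *Eif4g2* and *Pigs* (both r = 0.91), and nearest to *Tfap4* were *Klhdc4* and *Eefsec* (both r = 0.91). These genes had correlations of 0.63 to 0.92 with the GC correlation of the library themselves. *Mxd3* was nearest to *Eldr* (r = 0.86) and *Acyp1* (r = 0.85), *Mxd4* to *Glud1* (0.84) and *Scyl2* (0.79), and *Mxi1* to *Pde12* (0.87) and *Sbf1* (0.86). *Mnt* was nearest to *Uso1* (0.83) and *Ccdc88c* (0.76), *Mga* to *Kansl3* (0.83) and *Usp40* (0.78), and *Mxd1* to *Ndrg1* (0.72) and *Glrx5* (0.69).

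Genes that MYC is known to activate, mostly for ribosome biogenesis, nucleotide synthesis and growth, were described as a list of 30. In cMyc+prePB against the others together, 29 of the 30 had a higher mean, against 50.3% of all genes tested, and the list's median log2 fold change was 0.33 against 0.00 for all genes. Here and below, a higher or lower mean of a list's genes refers to log2 values. The lists were chosen with earlier results of these data known, so such counts are a description and not a test. *Ccnd2*, which encodes cyclin D2, was the gene that rose by limma's test without the block, which called 0.312% of all genes. Of the 30, 16 had an unadjusted p under 0.05, against 11.1% of all genes. The log2 fold change of *Ccnd2* was 1.50 (limma adjusted p = 0.000562), and it was called under all 29 alternative settings. The most abundant genes of the list did not pass: *Ptma* (prothymosin alpha) had a log2 fold change of −0.06 and *Eif4a1*, a translation initiation helicase, one of 0.32. edgeR called *Ccnd2* as well, and DESeq2 called *Nop56* in addition, a small nucleolar ribonucleoprotein gene named here after its values were seen. With the GC correlation as a covariate, the median was 0.28 and 27 of 30 were higher.

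The target genes were also followed by library, as the median of their centered log2 values. This median was 0.01, 0.32, 0.29 and 0.37 in cMyc+prePB, −0.18, 0.06, 0.25 and 0.06 in cMyc+early, −0.30, −0.07, −0.12 and 0.09 in cMyc+lateCD23int and −0.53, −0.04, −0.05 and 0.09 in cMyc+lateCD23lo. In cMyc+prePB, 3 libraries were above all others, and library 1, which was also lowest of its group for *Myc*, was not. The median correlated with *Myc* at r = 0.61 (rho = 0.63) over the 16 libraries, 0.47 without the 2 farthest libraries and 0.36 given the GC correlation of the library, with which it correlated at 0.53. In cMyc+early against cMyc+lateCD23lo, the list's median log2 fold change was 0.20 and 20 of 30 were higher, against 49.6% of all genes tested. *Ccnd2* was again the gene called by limma (log2 fold change 1.34, adjusted p = 0.0130), which called 0.28% of all genes. This call was lost without cMyc+early library 4 (adjusted p = 0.0543) and without cMyc+lateCD23lo libraries 3 (0.0517) or 4 (0.0561), and with no trend in the variance (0.0744), within a range of 7.14e-06 to 0.0744 over the alternative settings.

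**Figure D5:**
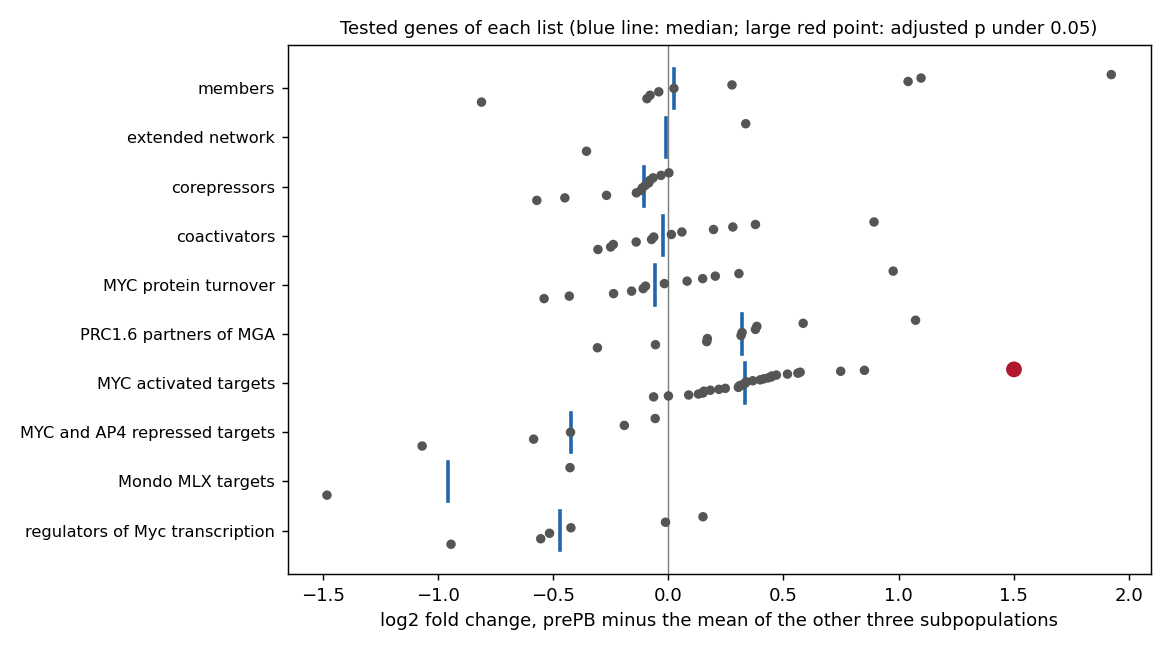
Log2 fold change (x axis) of cMyc+prePB minus the mean of the other subpopulations for each tested gene of 10 lists (y axis), with the median of the list as a blue line. The genes activated by MYC lie mostly above 0 (median 0.33, *Ccnd2* as the large red point at 1.50), and the members themselves lie on both sides of 0 (median 0.02).

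Genes repressed by MYC or AP4, the cell cycle inhibitors and growth arrest genes, had 5 of 6 tested. All 5 had a lower mean in cMyc+prePB than in the others together (median log2 fold change −0.42, with 50.3% of all genes higher). None of the 5 passed by limma, edgeR or DESeq2, and 0 had an unadjusted p under 0.05 (11.1% of all genes). The most abundant, *Cdkn2c* (the inhibitor p18), had a log2 fold change of −0.42 and *Cdkn1b* (p27) of −0.06. *Txnip* and *Arrdc4*, targets of the related MondoA-MLX dimers, had log2 fold changes of −0.43 and −1.48, with 0 called by any of the 3 tools and 0 at an unadjusted p under 0.05. *Arrdc4* lay close to the filter, with a mean of 11.1 normalized counts and 0 to 134 over the libraries. Its group means were 0 (cMyc+prePB), 0.24 (cMyc+early), 6.51 (cMyc+lateCD23int) and 37.5 (cMyc+lateCD23lo). Of the extended network, *Mlx* (0.34) and *Mlxip* (−0.36) were tested, with 0 called and 0 at an unadjusted p under 0.05, while *Mycl* and *Mlxipl* were under the filter, *Mycl* at 0 to 74.3 normalized counts.

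Genes for proteins with which the network acts did not pass limma's test without the block in any of the 8 comparisons. Of the 12 corepressor genes, 11 had a lower mean in cMyc+prePB than in the others together (50.3% of all genes were higher). Their median log2 fold change was −0.11. None of them passed by edgeR or DESeq2 in this comparison either, and 0 had an unadjusted p under 0.05 (11.1% of all genes). The most abundant, the histone chaperones *Rbbp7* and *Rbbp4*, had log2 fold changes of −0.07 and 0.00. The 12 coactivators of MYC had a median of −0.02, with 0 called by the 3 tools and 2 at an unadjusted p under 0.05, and the AAA+ helicase genes *Ruvbl2* and *Ruvbl1* had 0.28 and 0.20. The 12 genes for turnover of the MYC protein had a median of −0.06, with 0 called by the 3 tools and 1 at an unadjusted p under 0.05, and the kinase gene *Pim1*, the most abundant of them, had 0.15. The 10 partners of MGA in PRC1.6 had a median of 0.32 with 8 of 10 higher, 0 called by the 3 tools and 1 at an unadjusted p under 0.05, and this median was 0.10 with the GC correlation as a covariate. Their most abundant genes, *Cbx3* and *Tfdp1*, had −0.31 and 0.17. In other comparisons DESeq2 called *Rbbp4* (cMyc+early against cMyc+lateCD23lo and the F test) and the kinase gene *Gsk3b* (cMyc+prePB against cMyc+lateCD23lo), the latter named after its values were seen.

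Of 6 regulators of *Myc* transcription, 5 had a lower mean in cMyc+prePB than in the others together (50.3% of all genes were higher). Their median log2 fold change was −0.47, and −0.30 with the GC correlation as a covariate. None of the 6 passed by limma without the block or by edgeR, 2 had an unadjusted p under 0.05 (11.1% of all genes), and DESeq2 called *Rel*. *Rel*, the NF-κB subunit that activates *Myc* after CD40 signals, had 1548 normalized counts in cMyc+prePB and 2560.5, 3578 and 2944 in cMyc+early, cMyc+lateCD23int and cMyc+lateCD23lo as means (log2 fold change −0.94, limma adjusted p = 0.176). *Nfkb1* had a log2 fold change of −0.01. *Bcl6*, a repressor of *Myc* named here after its values were seen, had −0.55 (limma adjusted p = 0.279). DESeq2 also called *Bcl6* for cMyc+prePB against cMyc+lateCD23lo, *Rel* for cMyc+prePB against cMyc+lateCD23int and *Prdm1* for cMyc+early against cMyc+lateCD23int and against cMyc+lateCD23lo. *Prdm1*, also named after its values were seen, had means of 35.2 (cMyc+prePB), 2.74 (cMyc+early), 80.7 (cMyc+lateCD23int) and 82.9 (cMyc+lateCD23lo) normalized counts. Its limma adjusted p was 0.545 and 0.0893 in these comparisons.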

How the data were processed

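Normalized counts of 16 libraries, made with a low-input kit, were taken as deposited; this signal is what the authors obtained by dividing gene counts by 1 size factor per library. The submitters' processing notes name Trimmomatic 0.36, STAR 2.5.2a, RSEM 1.2.31, DESeq2 1.20.0, R 3.5.1 and GRCm38. Groups and numbers came from the labels. Whole reads were recovered for 100% of values (tolerance 0.01). In R 4.3.3, limma 3.58.1 was fitted with a trend to log2(normalized count + 1) over all 16 libraries, for genes averaging 10 or more, with Benjamini-Hochberg adjustment over all 12505 genes. Fold changes are on this scale, which understates those of low genes. edgeR 4.0.16 and DESeq2 1.42.0 were run on the recovered reads as alternatives. Only limma and edgeR were tried on simulated counts first, for cMyc+prePB against the others together. Intervals cover the spread between libraries, and floors of 3 reads cover counting error only. The members and lists were chosen with earlier results of these data known, the lists from general knowledge. Named in a list were genes called, otherwise the 2 most abundant, of which 1 is not reported here. For each member the 2 genes with the highest Pearson correlation were named. Other alternatives were pseudocounts, filters, normalizations, no trend, the groups compared alone, the replicate block and leaving out each library; the GC covariate was added after the data were seen.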

Additional observations from a re-analysis of the deposited data

Results flagged for a closer look

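Of 36 groups of 4 libraries (9 members in 4 subpopulations), 5 held a library set apart from the other 3 by Dixon's criterion at the 95% level. Chance gives about 1 in 20 only where values follow a normal distribution, and the criterion was applied to normalized counts without a log. The share over all genes tested was not computed, so 5 of 36 is not read as an excess. *Myc* had 2300.0 normalized counts in cMyc+prePB library 1, against 4165 to 4417 in the others of that group. *Mxi1* had 99.2 in cMyc+prePB library 2 (others 20.7 to 30.1), 139.8 in cMyc+early library 2 (others 0 to 17.2) and 50.6 in cMyc+lateCD23lo library 1 (others 0.936 to 9.18). *Mnt* had 54.1 in cMyc+prePB library 4 (others 24.8 to 27.9).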

How the results depend on the processing

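The count of members called was 0 as reported. For cMyc+prePB against the others together it was 1 by DESeq2 and 0 to 1 when a library was left out, and for cMyc+prePB against cMyc+lateCD23lo it was 2 by DESeq2 and 0 to 1 when a library was left out. The other 6 comparisons kept a count of 0 under every alternative run, among them the GC covariate. DESeq2 also called more of all genes, 225 against 39 and 270 against 33. *Mxd4* in cMyc+prePB against cMyc+lateCD23int, −0.10 as reported, was 0.024 by edgeR, 0.062 by edgeR with the replicate block, 0.016 by DESeq2 and −0.33 to 0.29 when a library was left out. *Mxi1* in cMyc+prePB against cMyc+lateCD23lo was −0.49 with the GC covariate and the replicate block. The cause of these changes was not tested. Of the recomputed fold changes of single genes, 428 kept their direction and side of the threshold, 7 newly passed it, 4 (*Ccnd2* in cMyc+early against cMyc+lateCD23lo) no longer passed it and 6 reversed.

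The labels do not say that libraries with the same number belong together, and the numbers were not taken to pair them: 5 of 24 correlations between same-numbered libraries (deviations from the group means) were over 0.1. As a hint from the data, 10 of 16 libraries were closest to one of the same number. With the replicate block, 2 members were called for cMyc+prePB against cMyc+lateCD23lo, *Myc* (limma adjusted p = 0.0392) and *Mxd3* (0.0449), and all genes called rose from 39 to 211 and from 33 to 192; the block changed no other member's call. With the block, edgeR called 0 members in this comparison and limma with the GC covariate called 0. For cMyc+prePB against the others together, the block in limma called 7 of the 30 genes activated by MYC in place of 1 and 2 of the 6 regulators of *Myc*, namely *Bcl6* and *Rel*, in place of 0. In the same comparison the block in limma called 3 of the 5 B cell markers, *Cd79a*, *Cd79b* and *Ms4a1*, in place of 0. It also called *Rbbp4* and *Prdm1* for cMyc+early against cMyc+lateCD23lo, *Gsk3b* and *Bcl6* for cMyc+prePB against cMyc+lateCD23lo and *Rel* for cMyc+prePB against cMyc+lateCD23int. Fitting the compared groups alone was not run for the F test and cMyc+prePB against the others together, which use all groups. Low reads limit *Mxd1*, *Mxi1* and *Mnt*.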
